A study of Mus musculus with 1 sample.

Results

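Expression of 9 transcription factor genes of acinar and ductal identity, Ptf1a, Rbpjl, Nr5a2, Bhlha15, Gata4, Gata6, Pdx1, Sox9 and Onecut1, was followed through the cell classes of the young mouse pancreas. The genes, called members here, were chosen by name, and all 9 were found among the 32285 genes listed. The data were 1 droplet library of single cells from the pooled pancreata of 5 to 6 Scap f/f mice, 2 weeks old, with both sexes in equal number. These mice carried floxed alleles of Scap, which encodes the escort protein of the SREBP lipid regulators, but no Cre recombinase, and they served the study as its wildtype. The library of mice lacking pancreatic Scap was not analysed here, so the values describe classes within 1 genotype, and single animals could not be told apart. Scap itself had 269 UMIs (molecular barcodes, 1 for each captured transcript) in acinar-like and 56 in duct-like barcodes, or 25.4 and 36.4 for each 1000000 UMIs of the class. With the UMIs of digestive enzyme genes left out, the levels were 45.2 and 39.1 for each 1000000. Their intervals for counting error, 39.9 to 50.9 and 29.55 to 50.8, overlapped. The order of both classes thus depended on the denominator.

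Acinar cells make and secrete digestive enzymes, duct cells line the channels that carry them away, and both descend from the same pool of embryonic progenitors. Ptf1a and Rbpjl form, with a common bHLH partner, the PTF1 complex that drives enzyme genes, while Nr5a2, Bhlha15 and the Gata factors maintain the acinar programme beside it. Pdx1 marks the embryonic progenitors and later the beta cells, and Sox9 and Onecut1 are factors of the progenitors that persist in the ducts and centroacinar cells.

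Barcodes between 800 and 100000 UMIs were kept when mitochondrial transcripts made up under 15% of them, which left 10947 of 11789 (92.9%), with a median of 2650 UMIs. Classes were set from marker genes, none of them a member. Acinar-like barcodes had at least 20% digestive enzyme UMIs, and duct-like barcodes had less than that, with at least 0.3% of their non-enzyme UMIs from at least 3 duct genes such as Spp1, Epcam and Cftr. Barcodes that met both criteria were kept apart as acinar- and duct-like. This gave 845 acinar-like, 57 acinar- and duct-like and 66 duct-like barcodes, with median depths of 5749, 24108 and 13406 UMIs. The largest of the other classes were 5779 fibroblast-like and 1560 immune-like barcodes, and 667 barcodes with markers of several classes were left as mixed. Duct-like barcodes held 222 UMIs of Krt19 and 820.1 of Epcam for each 1000000 non-enzyme UMIs, against 34.8 and 137 in acinar-like barcodes, while the leukocyte gene Ptprc stood at 3.5 and 26. Krt19 and Epcam belong to the duct gate and Ptprc to the immune gate. The gates therefore shape these values, which are no separate check of the classes. Scrublet, which scores simulated doublets, marked 7 acinar-like barcodes and 0 of the duct-like and of the acinar- and duct-like barcodes, against 317 of the mixed ones. With only 66 of 10947 barcodes duct-like, few simulated doublets join an acinar-like and a duct-like barcode. A mark of 0 therefore says little about such pairs.

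Enzyme UMIs took 43.7% of the acinar-like class and 7.01% of the duct-like class, which lowers every other acinar gene when all UMIs are the denominator. Levels are therefore given as CPM, here UMIs for each 1000000 non-enzyme UMIs, and between both classes also as total CPM, for each 1000000 of all UMIs. Brackets hold 95% intervals, exact and for counting error only, since 1 library has no replicate and allows no test. RNA released from broken cells enters every droplet, and the immune-like class, which should lack the members, gives a partial view of its reach. There the 9 members had between 1 (Pdx1) and 27 UMIs each, or at most 7.48 CPM (Rbpjl). The gate of this class took only barcodes with under 5% enzyme UMIs, so it also capped free acinar RNA. Rbpjl was at 72.1 CPM in mixed barcodes and at 110 CPM in those not assigned to a class. The part of this cap in comparisons with the immune-like level was not tested. Collagen UMIs, read as a mark of free RNA, were not equal in all classes. Those of Col1a1 and Col3a1 were 2.83-fold the immune-like level in acinar-like, 2.20-fold in acinar- and duct-like and 1.14-fold in duct-like barcodes. In total CPM these ratios were 1.61, 1.52 and 1.07 [0.999 to 1.14]. The gates also capped collagen, at under 0.5% of UMIs in epithelial and under 1% in immune-like barcodes. Their part in these ratios was not tested. Levels of different genes are not ranked against each other.

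Ptf1a, Rbpjl, Bhlha15 and Gata4 were higher in acinar-like than in duct-like barcodes, and Gata6, Sox9 and Onecut1 were higher in duct-like ones. Nr5a2 and Pdx1 differed by less than 2-fold between both classes once enzyme UMIs were left out. In total CPM, 4 members were higher in acinar-like barcodes and 5, with Nr5a2 and Pdx1, were lower. All 9 members exceeded their immune-like level at least 4-fold in acinar-like barcodes, where 12.7% of 14667 genes with at least 10 UMIs did so, and in duct-like barcodes, where 18.1% of 13742 genes did. Against each other, 4 members were at least 4-fold higher in acinar-like barcodes (2.34% of 13795 genes) and 3 were at least 4-fold higher in duct-like barcodes (10.1% of the same genes). In total CPM, only Ptf1a and Bhlha15 of the 4 passed 4-fold, where 0.964% of these genes did. The 3 higher in duct-like barcodes still passed it, where 21.0% of the genes did. The epithelial classes held between 81.4% (Nr5a2) and 91.4% (Onecut1) of the kept UMIs of 8 members, and 20.4% of those of Gata6.

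**Figure D1:**
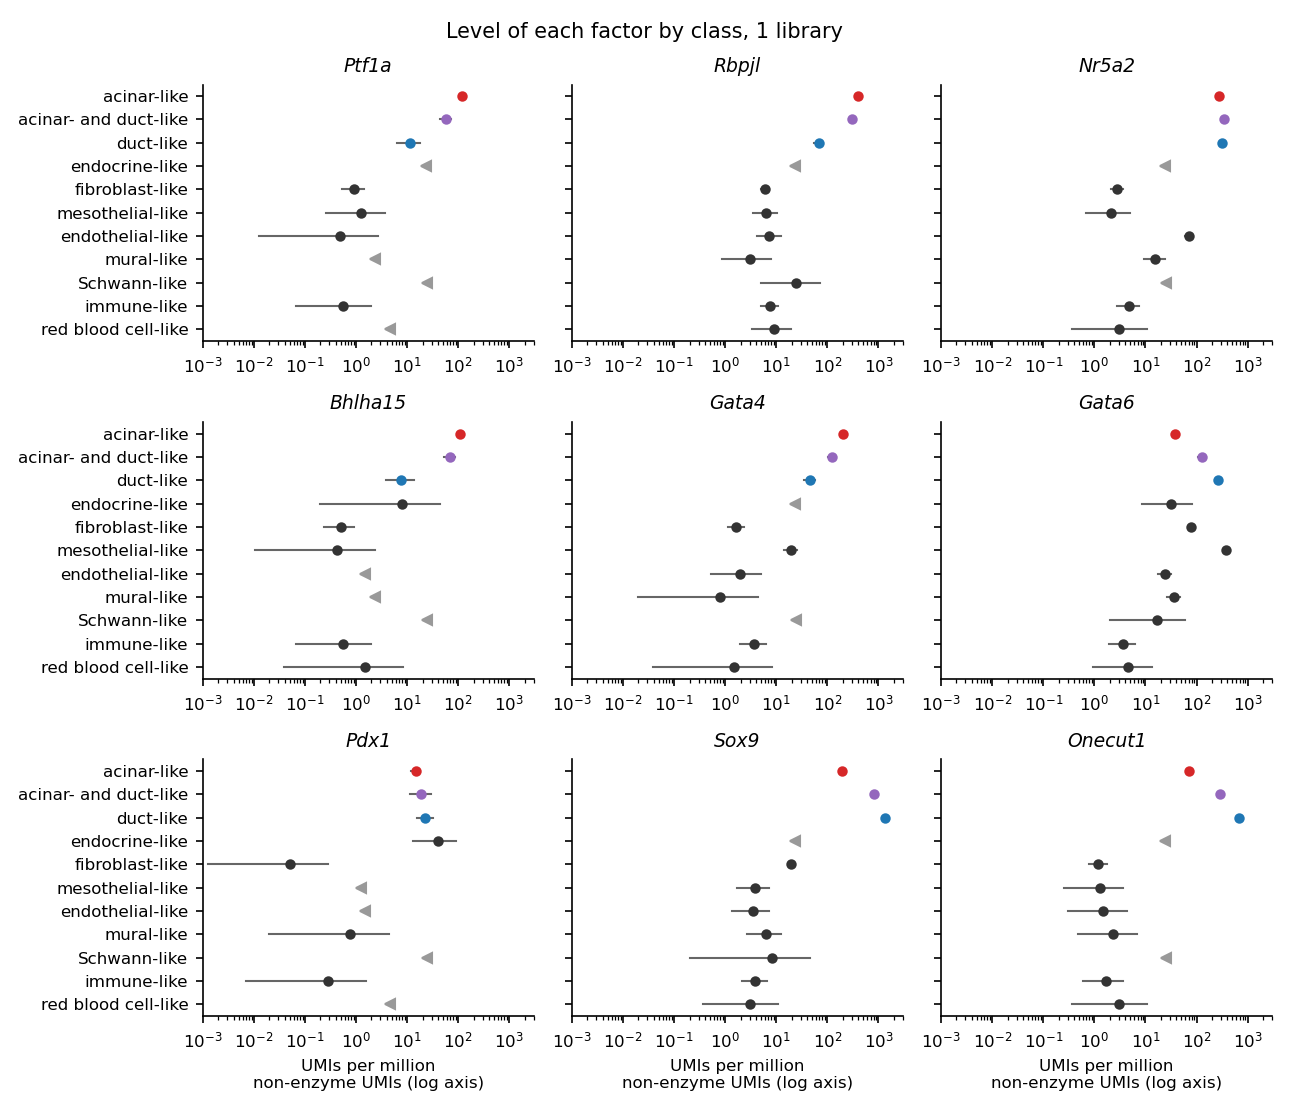
Level of each of the 9 members, in CPM (non-enzyme) on a log scale, in the cell classes of the Scap f/f library, with exact 95% Poisson intervals and grey triangles at the limit of 3 counts where a class had 0 UMIs. Ptf1a, Rbpjl and Bhlha15 are highest in acinar-like barcodes, Sox9 and Onecut1 in duct-like ones, and Gata6 is highest in mesothelial-like barcodes.

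Ptf1a (chr2:19445663-19447501, plus strand, build GRCm38), the bHLH factor that gives the PTF1 complex its pancreatic specificity, had 704 UMIs in acinar-like barcodes, or 118 CPM [109.7 to 127]. Duct-like barcodes held 16 UMIs, or 11.2 CPM [6.39 to 18.2]. In total CPM the levels were 66.5 and 10.4. The acinar-like level was 10.6-fold higher [6.47 to 18.6], and 6.40-fold higher in total CPM [3.91 to 11.3]. Beyond the epithelium Ptf1a had few UMIs, with 18 UMIs in the 5779 fibroblast-like and 2 in the 1560 immune-like barcodes.

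Rbpjl (chr2:164403141-164415448, plus strand), the acinar form of the DNA-binding subunit that replaces Rbpj in the mature complex, had 2384 UMIs in acinar-like barcodes. Its level of 400.4 CPM [384 to 417] compared with 67.1 [54.3 to 81.9] in duct-like barcodes, a 5.97-fold difference [4.87 to 7.4], or 3.61-fold in total CPM (225 against 62.4). Bhlha15 (chr5:144190286-144194441, plus strand), also known as Mist1, organises the secretory apparatus of acinar cells. It stood at 108 CPM in acinar-like and 7.68 [3.84 to 13.7] in duct-like barcodes, with 643 against 11 UMIs, and its ratio of 14.1 [7.80 to 28.3] had the widest interval of the members because of the small duct-like count. In total CPM the levels of Bhlha15 were 60.7 and 7.15, an 8.50-fold difference. Among acinar-like barcodes of at least 10000 UMIs, 207 of 292 had a UMI of Ptf1a, 274 of 292 of Rbpjl and 198 of 292 of Bhlha15. The same genes were found in 9 of 38, 24 of 38 and 8 of 38 duct-like barcodes of that depth.

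Most duct-like UMIs of these factors lay in the barcodes with more enzyme RNA. In the 35 duct-like barcodes with under 2% enzyme UMIs Ptf1a had 0 UMIs, which allows up to 4.34 CPM, and in the 31 others it had 16, or 21.6 CPM. Rbpjl was at 15.9 and 115 CPM in these barcodes, and Bhlha15 at 1.45 (1 UMI) and 13.5. Per 1000 UMIs of the chymotrypsinogen gene Ctrb1, Rbpjl had 2.42 UMIs in acinar-like, 3.97 in duct-like, 3.79 in immune-like and 3.93 in fibroblast-like barcodes. For Ptf1a the values were 0.713, 0.662, 0.281 (2 UMIs) and 0.589 [0.349 to 0.931], and for Bhlha15 0.651, 0.455, 0.281 (2 UMIs) and 0.327 (10 UMIs). The duct-like ratios of Rbpjl and Ptf1a to Ctrb1 lay near those of fibroblast-like barcodes. For Ptf1a the fibroblast-like interval held the acinar-like value too, so this nearness sets nothing apart. The part of free RNA in the duct-like level was not tested.

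The promoters of these 3 genes are shown because PTF1 binds a composite site made of an E-box and a TC-box, and Onecut1 is shown as the duct-side counterpart. The sequences are the bases just before the annotated gene start, from RefSeq on GRCm38.p6, at chr2:19445413-19445662, chr2:164402944-164403140, chr5:144190036-144190285 and chr9:74861671-74861920, all on the plus strand. Capitals mark E-boxes (CANNTG) and the TC-box core (TTCCCA) on either strand.
Ptf1a: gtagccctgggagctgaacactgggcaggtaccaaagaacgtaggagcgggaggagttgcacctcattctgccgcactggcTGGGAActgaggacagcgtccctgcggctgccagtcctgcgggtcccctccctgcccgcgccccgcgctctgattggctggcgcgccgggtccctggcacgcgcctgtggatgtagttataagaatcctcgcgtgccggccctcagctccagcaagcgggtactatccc
Rbpjl: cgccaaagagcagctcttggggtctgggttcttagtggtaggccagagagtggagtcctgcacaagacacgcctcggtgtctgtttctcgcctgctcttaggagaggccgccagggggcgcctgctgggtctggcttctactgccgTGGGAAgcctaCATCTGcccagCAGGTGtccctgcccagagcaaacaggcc
Bhlha15: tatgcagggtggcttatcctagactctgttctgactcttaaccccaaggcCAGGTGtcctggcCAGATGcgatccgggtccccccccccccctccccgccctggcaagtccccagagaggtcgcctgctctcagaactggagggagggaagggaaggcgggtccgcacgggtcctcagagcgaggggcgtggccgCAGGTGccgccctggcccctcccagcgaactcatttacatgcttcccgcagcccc
Onecut1: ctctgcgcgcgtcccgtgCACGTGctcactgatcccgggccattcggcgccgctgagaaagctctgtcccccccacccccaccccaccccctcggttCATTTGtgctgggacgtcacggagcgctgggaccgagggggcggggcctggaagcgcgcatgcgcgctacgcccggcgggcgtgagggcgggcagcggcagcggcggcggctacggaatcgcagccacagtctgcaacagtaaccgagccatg
Counted back from the RefSeq start, the Rbpjl sequence held a TC-box core at 104 bases, read on the minus strand, followed by E-boxes at 93 and 82 bases. The Bhlha15 sequence held E-boxes at 200, 187 and 55 bases. The E-boxes at 82 bases of Rbpjl and at 200 and 55 bases of Bhlha15 had the letters CACCTG on the minus strand, a form that the bHLH dimer of PTF1 binds, which is a subset of CANNTG. The Ptf1a sequence held 1 TC-box core, at 169 bases, and no CANNTG, and that of Onecut1 held E-boxes at 232 and 153 bases. Such letters are common: of 32851 promoters of 250 bases, 66.2% held CANNTG, 31.8% at least 2 of them, 17.2% CACCTG and 21.6% TTCCCA. The Rbpjl sequence was shorter than these, at 197 bases. It ends at the annotated gene start, which lies before the RefSeq start, and the bases between both starts were not searched. Nr5a2 and Pdx1 were also matched to the promoter table, and Gata4, Gata6 and Sox9 were not.

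Nr5a2 (chr1:136842571-136960448, minus strand), a nuclear receptor that cooperates with PTF1 on enzyme genes, was not restricted to acinar-like barcodes. It had 1610 UMIs there and 452 in duct-like barcodes, or 270.4 [257 to 284] and 316 [287 to 346] CPM. Duct-like barcodes were thus 1.17-fold higher [1.05 to 1.30], and 1.93-fold higher in total CPM (294 against 152). Within barcodes of at least 10000 UMIs the duct-like level was 1.07-fold the acinar-like one [0.955 to 1.2], an interval that holds 1. All 38 duct-like barcodes of that depth had a UMI of Nr5a2, at a lowest, median and highest level of 63.8, 308 and 781 CPM. Its ratio to Ctrb1 in duct-like barcodes, 18.7 per 1000, was well above the 1.63 of acinar-like and the 2.39 of immune-like barcodes.

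Nr5a2 was also present in endothelial-like barcodes, which line blood vessels. These held 142 UMIs in 78 of 268 barcodes, or 69.6 CPM [58.6 to 82.0], with at most 9 UMIs in 1 barcode. The endothelial-like level was 14.8-fold the immune-like and 25.3-fold the fibroblast-like one [18.4 to 35.2]. Ctrb1 stood lower in endothelial-like than in fibroblast-like barcodes, at 1136 against 1529.7 CPM, and Rbpjl was at 7.35 and 6.01.

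The GATA zinc finger factors, which act together in early pancreatic growth, were unequal in the epithelium. Gata4 (chr14:63198922-63271692, minus strand) had 1205 UMIs in acinar-like and 64 in duct-like barcodes, at 202 [191 to 214] and 44.7 [34.4 to 57.1] CPM. Gata6 took the reverse course, with 225 UMIs or 37.8 CPM [33.0 to 43.1] in acinar-like and 369 UMIs or 258 [232 to 285] in duct-like barcodes. Gata4 was thus 4.53-fold higher in acinar-like barcodes [3.52 to 5.92] and Gata6 6.82-fold higher in duct-like barcodes [5.76 to 8.09]. In total CPM the acinar-like and duct-like levels were 114 and 41.6 for Gata4, and 21.3 and 239.7 for Gata6. Every one of the 38 duct-like barcodes of at least 10000 UMIs held Gata6, against 113 of 292 acinar-like ones, while Gata4 was found in 21 of 38 and 244 of 292. Gata4 per 1000 Ctrb1 UMIs was 1.22 in acinar-like and 2.65 [2.04 to 3.38] in duct-like barcodes. It was 1.82 [0.971 to 3.12] in immune-like (13 UMIs) and 1.08 [0.743 to 1.52] in fibroblast-like barcodes (33 UMIs).

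Outside the epithelium the GATA factors met in the mesothelial-like class, the outer lining of the organ. Gata6 reached 371 CPM there [347 to 396], with UMIs in 261 of 386 barcodes, which was 1.44-fold the duct-like level [1.27 to 1.63]. Fibroblast-like barcodes held 1589 UMIs of Gata6 in 1035 of 5779 barcodes, or 79.5 CPM [75.7 to 83.5], against 3.60 in immune-like barcodes. Because fibroblast-like barcodes were so many, they held the most Gata6 UMIs of any class. Gata4 stood at 19.3 CPM [14.2 to 25.8] in mesothelial-like barcodes, where its ratio to Ctrb1 was 14.4 per 1000, and at 1.65 in fibroblast-like ones. An antisense transcript that overlaps Gata6, 1010001N08Rik, had 57 UMIs in acinar-like and 83 in duct-like barcodes.

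Sox9 (chr11:112782224-112787760, plus strand), an HMG-box factor that maintains progenitors and ducts, had 1918 UMIs in duct-like barcodes and was found in all 66 of them. Its level was 1339.8 CPM [1280.5 to 1401] in duct-like and 192 [181 to 203] in acinar-like barcodes, a 6.99-fold difference [6.49 to 7.53]. Onecut1 (chr9:74861921-74891781, plus strand), also called HNF6, acts upstream of duct differentiation. It had 957 UMIs or 669 CPM [627 to 712] in duct-like and 428 UMIs or 71.9 [65.2 to 79.0] in acinar-like barcodes, which was 9.30-fold lower. In total CPM the acinar-like level of Sox9 was 108, 11.6-fold below the duct-like 1246, and that of Onecut1 was 40.4, 15.4-fold below 622. Across duct-like barcodes of at least 10000 UMIs, Sox9 ranged from a lowest level of 128 through a median of 1233 to 2454 CPM. Outside the epithelium Sox9 was at 19.8 CPM [17.9 to 21.9] in fibroblast-like barcodes, with UMIs in 272 of 5779, and at 3.88 in immune-like ones, while Onecut1 was at 1.2 and 1.66.

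Neither factor was confined to duct-like barcodes. Sox9 was found in 227 of 292 acinar-like barcodes of at least 10000 UMIs and Onecut1 in 160 of 292. The acinar-like Sox9 level was 49.4-fold the immune-like level [29.3 to 90.7]. In these deep barcodes Sox9 had a lowest, median and highest level of 0, 141 and 1289 CPM, so the highest acinar-like barcodes overlapped the duct-like ones. Sox9 was higher where duct markers were: in acinar-like barcodes with under 0.05%, 0.05 to 0.1%, 0.1 to 0.2% and 0.2 to 0.3% duct-marker UMIs it stood at 121, 163, 221 and 401 CPM. The 236 barcodes with the fewest duct markers held 121 CPM, against 3.88 in immune-like barcodes.

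The ratios of Sox9 to duct genes depended on the gene. Sox9 had 2.67 UMIs for each Onecut1 UMI in acinar-like [2.38 to 2.99], 2.00 in duct-like [1.85 to 2.17] and 2.33 in immune-like barcodes [0.842 to 7.41]. For each UMI of Spp1, which the gates limit in acinar-like barcodes, it had 0.911 in acinar-like, 0.203 in duct-like, 0.177 in immune-like and 1.18 in fibroblast-like barcodes. The part of free RNA in the acinar-like Sox9 level was not tested.

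Acinar and ductal factors were seen in the same barcodes. Of 292 acinar-like barcodes with at least 10000 UMIs, 195 (66.8%) held Ptf1a and Rbpjl, 173 (59.2%) held Ptf1a and Sox9, and 121 (41.4%) held Ptf1a and Onecut1. To compare detection at 1 depth, barcodes of at least 5000 UMIs were thinned at random to 5000, enzyme UMIs included. This left out 392 of the 845 acinar-like barcodes. In 1 such draw Sox9 was seen in 45 of 119 barcodes with Ptf1a (37.8%) and in 39.5% of those without. Nr5a2 was seen in 56.6% of barcodes with Rbpjl and 32.7% of those without, and Gata4 in 42.4% and 23.7%. With and without Ptf1a, Nr5a2 was seen in 52.9% and 46.7% and Gata4 in 37.8% and 35.3%. Sox9 was seen in 42.8% of barcodes with Rbpjl and 32.1% of those without, and Bhlha15 in 22.6% and 23.7%. In this draw the shares of Sox9, Nr5a2 and Gata4 thus all differed less by Ptf1a than by Rbpjl. These shares have no intervals, with 119 barcodes holding Ptf1a and 297 holding Rbpjl, and whether the differences exceed counting error was not tested. The nuclear RNA content of barcodes also moved with Rbpjl, Nr5a2 and Gata4, and its part in these differences was not tested.

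In a separate draw at the same depth, Sox9 was seen in 33.8% of 453 acinar-like, 88.9% of 45 acinar- and duct-like and 100% of 54 duct-like barcodes, and without thinning in 63.1%, 91.1% and 100% of the same barcodes. Onecut1 was seen in 14.6%, 66.7% and 85.2%, and unthinned in 41.1%, 88.9% and 98.1%. Rbpjl was seen in 62.7%, 53.3% and 16.7% after thinning. Over all possible draws its expected shares were 63.7%, 64.3% and 22.5%. The duct-like class was thus lowest, and the others were not set apart. Over all barcodes of these classes, Rbpjl was at 400.4, 298 and 67.1 CPM without enzyme UMIs. Thinned counts, here and below, include enzyme UMIs, which took 43.7%, 31.4% and 7.01% of all UMIs of the 3 classes. Acinar-like barcodes thus kept fewer non-enzyme UMIs, and the part of this in the shares was not tested. As a background, all classes were thinned to 800 UMIs, and Sox9 was then in 60.6% of duct-like, 7.69% of acinar-like (4.73% in another draw) and 0.128% of immune-like barcodes, whose median depths before thinning were 13406, 5749 and 1669 UMIs.

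Pdx1 (chr5:147269959-147275848, plus strand), the homeobox factor of pancreatic progenitors and beta cells, was sparse. It had 88 UMIs or 14.8 CPM [11.9 to 18.2] in acinar-like and 32 UMIs or 22.4 [15.3 to 31.6] in duct-like barcodes. The duct-like to acinar-like ratio was 1.51 [0.976 to 2.29] without enzyme UMIs, an interval that holds 1, and 2.5 [1.61 to 3.79] with them (20.8 against 8.31 in total CPM). The 8 endocrine-like barcodes, with at least 5% hormone UMIs, held 5 UMIs, or 39.4 CPM [12.8 to 91.9], all in 3 barcodes led by the insulin gene Ins2, and the 3 barcodes led by glucagon held 0. On this scale so few barcodes do not set the endocrine-like level apart from the duct-like one (ratio 1.76 [0.536 to 4.55]). Endocrine marker genes, which include the hormones, were left in this denominator. They stood at 500205 CPM in endocrine-like and 137.6 CPM in duct-like barcodes, which lowers every other endocrine-like level. The ratio thus depends on the denominator, and it was not tested with these genes left out. In all non-epithelial named classes together Pdx1 had 3 UMIs. Its antisense neighbour Plut had 133 UMIs in acinar-like and 84 in duct-like barcodes.

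**Figure D2:**
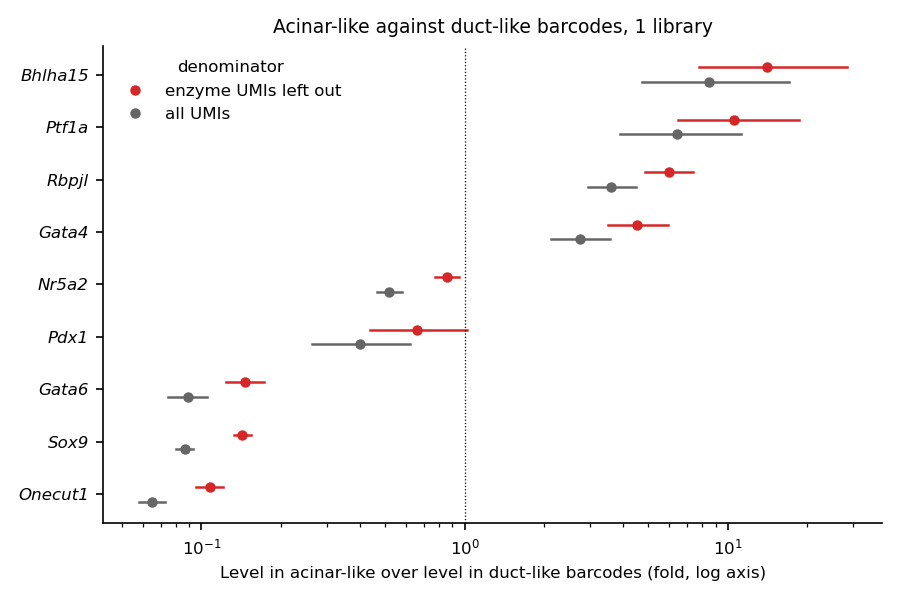
Ratio of the acinar-like to the duct-like level of each member on a log scale, with exact 95% intervals, in total CPM and in CPM of non-enzyme UMIs. Bhlha15, Ptf1a, Rbpjl and Gata4 lie above 1 and Gata6, Sox9 and Onecut1 below 1 on both scales, while Nr5a2 and Pdx1 lie nearer to 1.

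Barcodes that met both gates carried both programmes at intermediate levels. In the 57 acinar- and duct-like barcodes Ptf1a was at 57.2, Bhlha15 at 67.5 and Gata4 at 122 CPM, or 0.484-fold, 0.625-fold and 0.602-fold their acinar-like levels. Sox9 was at 803, Onecut1 at 287 and Gata6 at 128, or 0.599-fold, 0.429-fold and 0.495-fold their duct-like levels. Nr5a2 was at 349.7 CPM [315 to 387], 1.29-fold the acinar-like level [1.15 to 1.45] and not set apart from the duct-like one [0.963 to 1.27]. In total CPM it was at 239.9, between both classes, and 0.817-fold the duct-like level [0.711 to 0.939]. Scrublet marked 0 of the acinar- and duct-like barcodes, but its simulated doublets hold few pairs of an acinar-like and a duct-like barcode. Whether these barcodes held 1 cell or more was not tested. The median depth of this class, 24108 UMIs, was above that of both others. Depth thus moved with the class, and its part in the levels was not tested.

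The members also varied with the share of enzyme UMIs, a scale that used none of them. From duct-like barcodes with under 2% enzyme, through 10 to 20% and 20 to 30%, to 40 to 50%, Ptf1a had levels of 0, 26.5, 74.8 and 119 CPM. Over the same bins Sox9 had 1339.8, 1321, 644 and 229, and Onecut1 764, 537, 248 and 77.0. By the gates, the bins below 20% held duct-like barcodes only, so a step at this line is also a change of class. The bins from 20 to 60% mixed classes, and 24 of the 61 barcodes at 20 to 30% were acinar- and duct-like. In acinar-like barcodes of at least 10000 UMIs alone, over 20 to 30%, 30 to 40%, 40 to 50% and above 50% enzyme, Ptf1a was at 123, 119, 124 and 119.7 CPM. Sox9 was at 254, 180.2, 213 and 159 there, and Onecut1 at 116, 77.0, 75.6 and 72.9, so Ptf1a was level within this class. Sox9 was level within the duct-like class, at 1321 to 1377 CPM in its 3 bins, and lower from the 20% line on, which is also the line of the gate. Nr5a2 was highest between 2 and 30% enzyme, at 377, 381 and 367 CPM, and stood at 138 at 50 to 60%. Above 60% its level of 53.5 [11.0 to 156] rested on 3 UMIs, and the interval held 138. In the deep acinar-like barcodes alone Nr5a2 was at 366, 308, 285 and 234, a smaller range. Rbpjl and Gata4 were likewise lower at 50 to 60% (272 and 119.7) than at 30 to 40% (386 and 213), while Ptf1a (108 and 108) and Bhlha15 (103 and 88.5) were not.

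**Figure D3:**
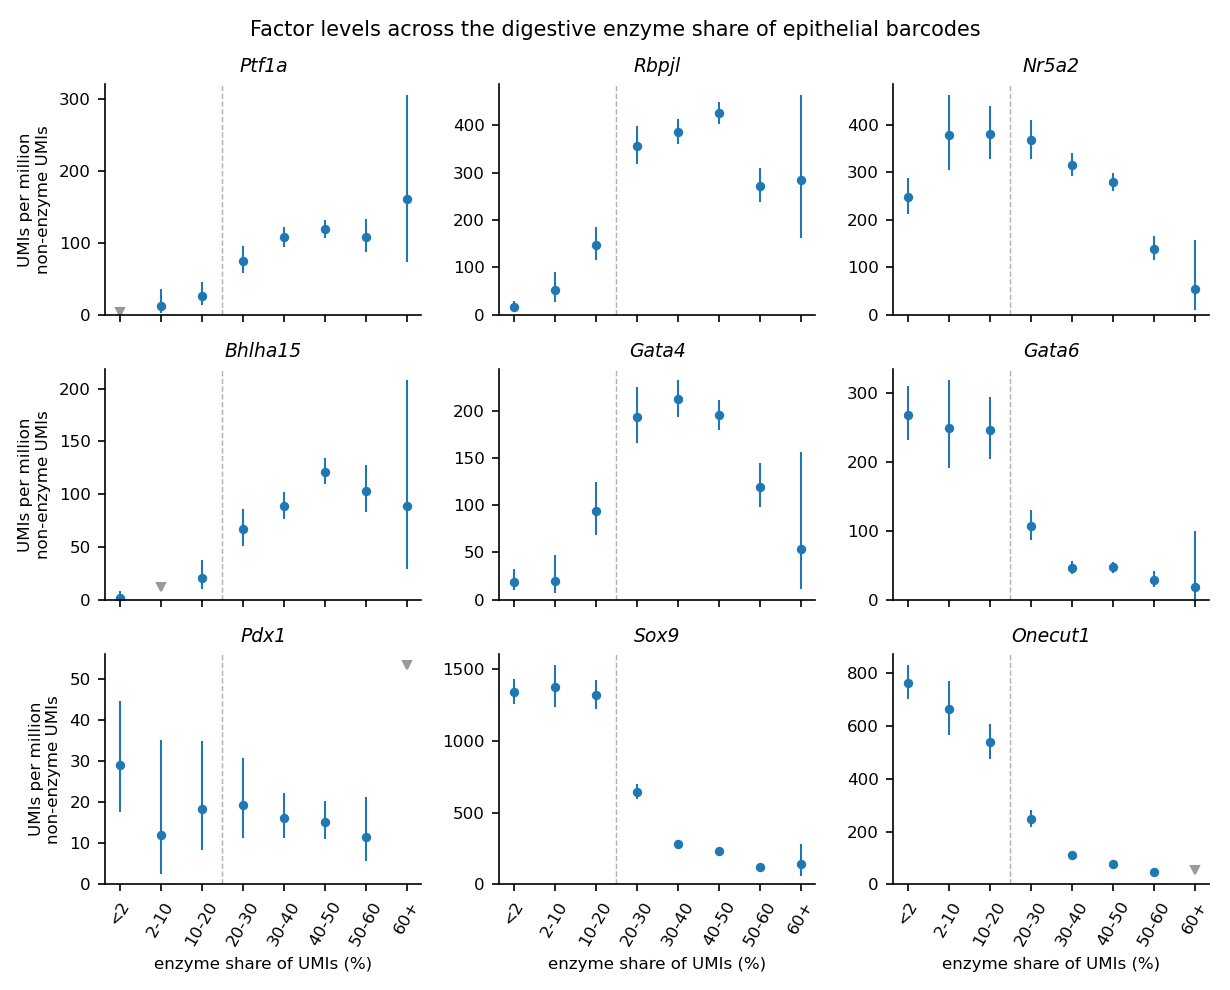
Levels of the members in CPM of non-enzyme UMIs across bins of the share of enzyme UMIs in the 968 epithelial barcodes, with exact 95% Poisson intervals, grey triangles at the limit of 3 counts where there were 0 UMIs, and a dashed line at the 20% limit of the acinar-like gate. The bins below 20% hold duct-like barcodes only. Sox9, Onecut1 and Gata6 are highest below 20% enzyme, Ptf1a and Bhlha15 above it, and Nr5a2 is lower in the bins above 50%.

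The acinar-like barcodes were of 3 kinds. Under 10000 UMIs, 396 had less than 0.5% nuclear RNA (Malat1, Neat1, Kcnq1ot1 and Meg3) among their non-enzyme UMIs and 157 had at least that much, and 292 had 10000 UMIs or more. Nr5a2 stood at 84.2 CPM in barcodes poor in nuclear RNA, 349 in those with it and 293 in deep ones. For Rbpjl the levels were 224, 581 and 411, and for Gata4 77.6, 194 and 223. Ptf1a was at 103, 106 and 122, and Bhlha15 stood at 97.3, 61.8 and 114. On the duct side, Sox9 had 147, 174 and 200.4 CPM and Onecut1 26.3, 83.9 and 78.0, while Gata6 was lowest in the barcodes with nuclear RNA, at 23.7, 11.0 [3.58 to 25.8] and 42.6.

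Between barcodes poor in nuclear RNA and deep ones, 4 members, Nr5a2, Gata4, Onecut1 and Pdx1, were at least 2-fold lower, where 22.9% of 12760 genes were. In total CPM 6 members were, with Rbpjl and Gata6 among them, where 32.0% of the genes were. Ptf1a was then at 49.5 [39.1 to 61.7] and 70.1 [64.5 to 76.1]. Bhlha15 was at 46.9 [36.8 to 58.9] and 65.6 [60.2 to 71.4], so the intervals of either gene did not overlap. Without enzyme UMIs the ratios were 0.288 [0.22 to 0.369] for Nr5a2, 0.348 for Gata4 and 0.337 for Onecut1. For Pdx1 the ratio was 0.240 [0.0484 to 0.727], which rests on 3 UMIs. Rbpjl (0.543), Gata6 (0.556) and Sox9 (0.735 [0.599 to 0.895]) were lower by less. For Ptf1a (0.841 [0.656 to 1.07]) and Bhlha15 (0.853 [0.660 to 1.09]) the intervals held 1 on this scale. These ratios moved with gene length: over all genes with at least 100 UMIs in the deep barcodes, the median ratio was 1.22 for genes under 5 kb and 0.375 for those over 100 kb. Ptf1a and Bhlha15 span 1.84 and 4.16 kb, Sox9 5.54 kb, Gata4 72.8 kb and Nr5a2 118 kb. By its point ratio, every member lay below the median ratio of genes of its length. These placements, here and below, leave out counting error, so they do not show that each member departs from its length group. The point ratios of Ptf1a and Bhlha15 were also below the lower quartile of genes under 5 kb (0.965), but their intervals held it. Sox9 was below the median (1.08) and lower quartile (0.830) of genes of 5 to 10 kb. Gata4 was below those of 50 to 100 kb (0.496 and 0.372). Gata6, which spans 33.6 kb, lay between the lower quartile (0.501) and median (0.686) of 20 to 50 kb. Pdx1 (0.240) spans 5.89 kb, where the median of genes of 5 to 10 kb was 1.08 and the lower quartile 0.830. Its 78 UMIs in the deep barcodes were under the 100 asked of these genes. Rbpjl spans 12.3 kb (median 0.904 and lower quartile 0.688 for 10 to 20 kb). Onecut1 spans 29.9 kb (0.686 and 0.501 for 20 to 50 kb). Pdx1, Rbpjl and Onecut1 were below both values. The counting included introns by default, and the part of nuclear and intronic RNA in the ratios was not tested.

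**Figure D4:**
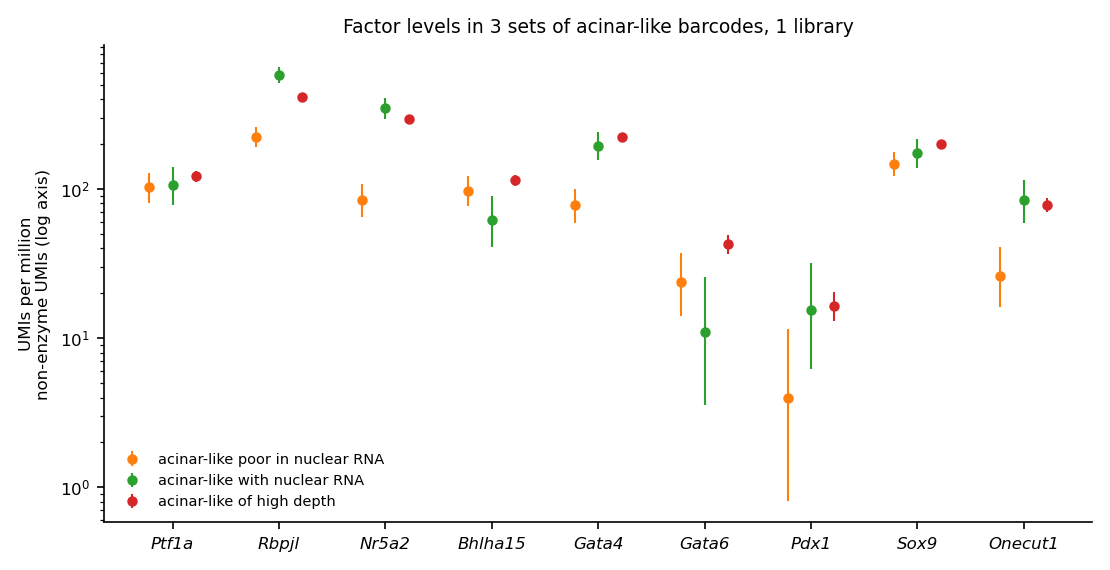
Levels of the members in CPM of non-enzyme UMIs in 396 acinar-like barcodes poor in nuclear RNA, 157 with nuclear RNA and 292 of at least 10000 UMIs, with exact 95% Poisson intervals. Nr5a2, Gata4 and Onecut1 are lower in the barcodes poor in nuclear RNA, and the intervals of Ptf1a overlap between all 3 groups.

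Partners and other factors of the pancreas were read from a list of 40. Between acinar-like and duct-like barcodes, 33 had at least 10 UMIs. Of these, 1 (Foxa3) was at least 4-fold higher in acinar-like barcodes, beside 2.34% of all genes, and 7 were at least 4-fold higher in duct-like barcodes, beside 10.1%. Among the 7 were Ehf, Hes1, Klf5, Nkx6-1, Onecut2 and Prox1. In total CPM 0 factors were at least 4-fold higher in acinar-like barcodes, beside 0.964% of all genes. There 11 were at least 4-fold higher in duct-like barcodes, beside 21.0%, and Foxa3 was 2.69-fold higher in acinar-like ones [1.65 to 4.67]. Rbpj, the Notch effector that Rbpjl replaces, was at 67.0 CPM in acinar-like, 83.1 in duct-like and 170.3 in non-epithelial barcodes, unlike Rbpjl with 400.4, 67.1 and 6.32. Of the E proteins that pair with Ptf1a, Tcf12 was at 302, 360.5 and 285 and Tcf3 at 28.7, 63.6 and 56.3. Hes1, a Notch target, was at 49.9, 286 and 112.

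Between the 3 epithelial classes and the non-epithelial ones, 16 of the factors were at least 4-fold higher in the epithelium, beside 8.19% of 18114 genes with at least 10 UMIs. Klf4 and Isl1, 2 in all, were at least 4-fold lower, beside 13.7%. Foxa2, Grhl2 and Nkx2-2 were at 0.731, 0.665 and 0.632 CPM outside the epithelium, against 63.3, 47.4 and 46.2 in acinar-like and 143, 122 and 65.7 in duct-like barcodes. Ehf, Prox1 and Klf5 were at 481, 479.9 and 135 in duct-like and 27.5, 19.98 and 25.5 in acinar-like barcodes. Mecom and the stress sensor Atf6 leaned the other way, at 982 and 262 in acinar-like and 421 and 106 in duct-like barcodes. Klf4 was at 935 CPM outside the epithelium and Isl1 at 28.7, against 84.0 and 2.69 in acinar-like barcodes.

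The genes most like each member were sought by Pearson's r of log levels over the 10 classes with at least 50 barcodes, which share 1 library and its free RNA. Among 14951 genes, the 3 nearest to each member had r between 0.955 and 0.997. Ptf1a was most like Amy2a3, 1810010K12Rik and Gp2, Rbpjl most like Amy2a1, Amy2a5 and Ctrc, and Bhlha15 most like Zg16, Klk1 and Pnliprp2, several of them enzyme genes of the acinar gate itself. Sox9 was nearest to Clic6, Macc1 and Plch2, and Onecut1 to Tm4sf4, Pkhd1 and Elf3, of which Pkhd1 belongs to the duct gate. Nr5a2 was nearest to Kcnq1, Cmtm8 and Ica1, Gata4 to Pla2g12a, Rap1gap and Ociad2, Pdx1 to Rhov, Arhgef38 and Foxa2, and Gata6 to Smtnl2, 1010001N08Rik and Mgst1, the second of which overlaps it. Among the members, the closest patterns were those of Ptf1a and Bhlha15 (r = 0.975), Pdx1 and Onecut1 (0.974) and Pdx1 and Sox9 (0.960). Pdx1 had 88 UMIs in acinar-like, 20 in acinar- and duct-like and 32 in duct-like barcodes, and at most 1 in each other class compared. Its r thus mainly sets the epithelial classes apart from the rest. Its acinar-like to duct-like ratio was 0.661, against 0.108 for Onecut1 and 0.143 for Sox9. The small endocrine-like class was not among the 10 classes. Pdx1 was at 39.4 CPM in it, while Sox9 and Onecut1 had 0 UMIs.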

How the data were processed

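The authors dissociated the pancreata, depleted dead cells and made a droplet library of transcript 3′ ends, whose reads Cell Ranger 7.1.0 assigned to mm10 genes. This tool counts intronic reads by default. The authors deposited counts (whole, unscaled UMIs of each gene in each barcode) for called cells of 500 to 174899 UMIs. The UMI limits of the study's methods had not been applied, and its upper limit of 10000 was not used here, since 818 kept barcodes reach it. The members and lists were chosen with earlier results of these data known, and the gate limits were set after seeing the values. Free RNA was not removed and doublets were kept.

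UMIs were summed per class with pandas 2.3.3, scipy 1.17.1 and numpy 2.4.6 under Python 3.11.15. Intervals are exact Poisson (levels), conditional binomial (ratios) and Clopper-Pearson at 95%, and a count of 0 is given the limit of 3 counts. Scrublet came from scanpy 1.11.5. The functions were tested on simulated data. All members were named, with other factors past 4-fold between classes (at most 12 by UMIs, plus Rbpj, Tcf3, Tcf12 and Hes1; factors only counted were named too) and the 3 genes most like each member. Some results under this rule are not reported here. Coordinates are from GENCODE M21 on GRCm38, the assembly of mm10.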

Additional observations from a re-analysis of the deposited data

How the results depend on the processing

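No paired analysis was possible because there is 1 library, and no value could be tested against replicates. No member changed the side on which its acinar-like to duct-like ratio lay under 13 alternatives. The ratio, in total CPM unless the alternative changed it, ranged from 2.62 to 21.3 for Ptf1a, 1.62 to 9.05 for Rbpjl, 1.55 to 6.11 for Gata4, 0.294 to 0.856 for Nr5a2, 0.0363 to 0.147 for Gata6, 0.345 to 0.663 for Pdx1, 0.0594 to 0.143 for Sox9 and 0.0520 to 0.108 for Onecut1. For Bhlha15 it ranged from 2.55 to 58.2 under 12 of them, and none was given below 10000 UMIs, where the duct-like class had 0 UMIs. With deep barcodes only and enzyme UMIs left out, an alternative chosen after seeing the data, 3 members rather than 5 were lower in acinar-like barcodes. Genes past the fold numbered 1863 (acinar-like over immune-like), 2481 (duct-like over immune-like), 323 (acinar-like over duct-like) and 1399 (duct-like over acinar-like) at 4-fold. At 2-fold they numbered 3802, 4285, 1252 and 3955 in this order. In total CPM they numbered 1074 (acinar-like over immune-like), 133 (acinar-like over duct-like) and 2896 (duct-like over acinar-like). Another random thinning gave shares of 42.2% (Gata6, acinar- and duct-like, first 24.4%), 75.9% (Gata6, duct-like, first 63.0%), 2.43% (Pdx1, acinar-like, first 4.64%), 3.70% (Pdx1, duct-like, first 11.1%), 66.7% (Rbpjl, acinar- and duct-like, first 53.3%) and, at 800 UMIs, 4.73% (Sox9, acinar-like, first 7.69%), so these shares carry the noise of 1 draw.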
